A study of Saccharomyces cerevisiae with 3 samples.

Results

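The late glucose shift is the change, gene by gene, in the expression ratio of 2 budding yeast strains, a mutant lacking GCR1 and its wild type, between 20 and 60 min after glucose was added. Its value for a gene is the log2 strain ratio at 60 min minus the log2 strain ratio at 20 min, averaged over the probes that carry the gene's symbol. It was obtained for 5595 of the 5598 genes on the arrays, those with a value at both times. The RNA of a gcr1 null mutant and of wild type cells of Saccharomyces cerevisiae was hybridised together on 1 Agilent oligonucleotide array with 2 colours at each of 3 times. Both strains had been grown to early or middle log phase in YEP, a rich medium, with 3% pyruvate, a carbon source that is respired. The 0 min sample was taken from that culture, and the 20 and 60 min samples after glucose was added. The labels give no strain background, allele or number of cultures.

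Gcr1 is a transcription factor that, with its partner Gcr2 and with Rap1, activates the genes of the glycolytic enzymes and takes part in the transcription of ribosomal protein genes. In wild type yeast, glucose added to respiring cells is fermented: genes of respiration, gluconeogenesis and fat breakdown are repressed, and genes for ribosomes are induced.

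Each time point has 1 array, so no difference below has a replicate check, a standard deviation or a p-value. A gene is called here when its ratio changed by at least 2-fold, a log2 difference of 1 or more in size, and "rose" or "fell" is said of the ratio of a called gene. An estimate of technical error came from genes with several probes. The differences given by the probes of 3560 genes with a pair of probes lay a median of 0.15 apart, and 95% of the pairs lay less than 0.53 apart. Of 649 called genes with several probes, 523 (80.6%) had every probe past 2-fold and 0 had probes of opposite sign. The 0 was nearly fixed in advance, since genes were called on the mean of these same probes. Only 40 of the 3560 pairs lay 1 or more apart. The error estimate leaves out cultures, RNA preparations, labelling and arrays, and 393 of the called genes had 1 probe. Genes whose values look like ratios of very low signals made up 9.15% of all genes and 10.4% of the called ones.

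GCR1 itself (YPL075W), the gene the mutant lacks, had a log2 ratio of 0.97 before glucose, 0.91 at 20 min and 1.51 at 60 min. Its late difference of 0.60, with 0.57 and 0.63 from its 2 probes, stayed within 2-fold. The labels do not state which strain is the numerator. The wording of the array titles and of the design makes the mutant the likely numerator. A positive ratio of the deleted gene goes against that unless its probes, whose place in the gene is not stated, lie outside the deleted part. The glycolytic enzymes, known targets of Gcr1, had a median ratio of -3.30 before glucose, the side that lower levels in a mutant numerator would give. Ratios are therefore called positive or negative, positive being the side of GCR1. A lower ratio can come from less RNA in the numerator strain or more in the other, and these cannot be told apart.

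Across the genome the ratio rose in 473 genes, 8.45% of those measured, and fell in 569, or 10.2%, so 18.6% changed in either direction. The median gene shifted by 0.16, the quartiles lay at -0.39 and 0.58, and single genes ranged from -3.88 to 5.02. Centring both arrays took the counts to 330 higher and 674 lower, and scaling them to equal spread to 372 and 679, so the share of higher calls moved from 45.4% to 32.9% and 35.4%. List medians below are log2 differences as measured, and those called relative to the median gene have its 0.16 taken off.

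Of the 569 fallers 268 had been at least 2-fold positive at 20 min and 26 at least 2-fold negative, against 958 and 925 of all 5595 genes. The 20 min ratio is subtracted in the difference, so this split is partly fixed in advance. Of 958 genes at least 2-fold positive at 20 min, 575 were still so at 60 min, 372 had come within 2-fold of even and 11 had crossed to the negative side. A further 335 genes left the 2-fold band around even for the negative side, and the ratio fell in 191 of them. In the other direction, 507 genes moved from the negative side into the band, with a rise in 187, and 325 moved from the band to the positive side, with a rise in 99. The whole band was crossed upward by 6 genes, ADE17, FUI1, PRM5, MATALPHA1, HMLALPHA1 and 1 gene with a systematic name only.

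**Figure D1:**
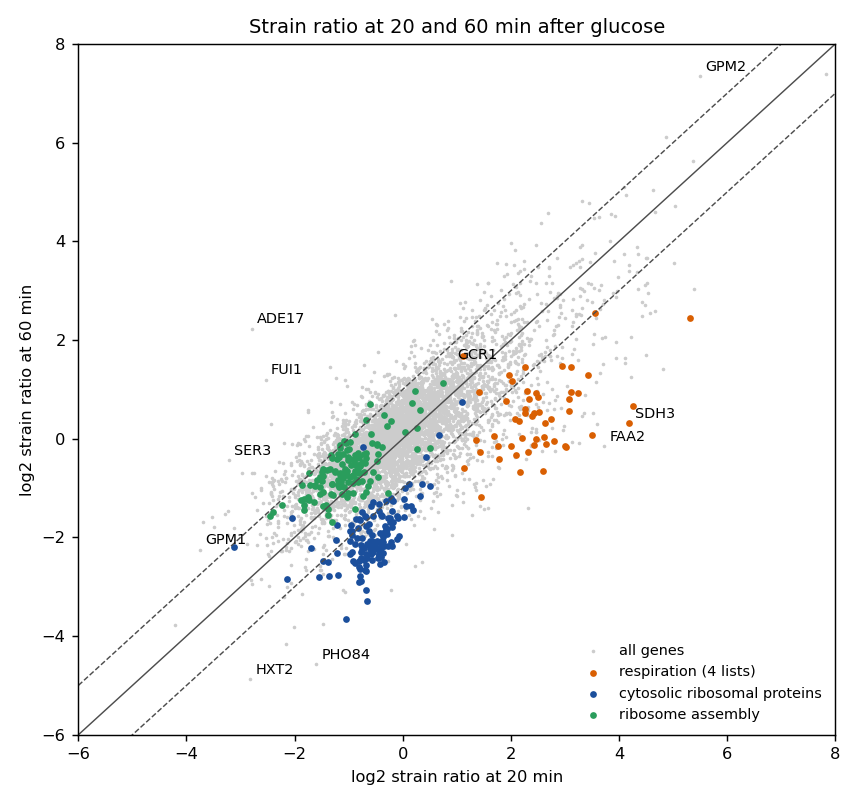
Log2 strain ratio at 20 min (horizontal axis) and at 60 min (vertical axis) for 5595 genes, 1 point a gene, with the solid line marking no change and the dashed lines a change of 2-fold. Genes of the TCA cycle, complex III, cytochrome c oxidase and ATP synthase lie to the right and below the line, ribosomal protein genes below it on the negative side, and ribosome assembly genes on the negative side close to or above it.

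Genes of mitochondrial respiration fell together, and the TCA cycle, ATP synthase and complex III with cytochrome c had the lowest medians of the 55 lists. The 51 measured members of 4 lists, the TCA cycle, complex III with cytochrome c, cytochrome c oxidase and ATP synthase, had a median ratio of -0.12 before glucose, 2.42 at 20 min and 0.41 at 60 min. Of these, 46 fell and 0 rose, against 10.2% and 8.45% of all genes. At 60 min 50 of the 51 were nearer to their own 0 min ratio than at 20 min, which held for 53.2% of all genes. The median difference of the 51 genes was -2.13, and relative to the median gene it was -2.29.

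The TCA cycle, which oxidises acetyl-CoA to carbon dioxide in the mitochondrion, fell in all 16 members with a median of -2.44 (5.44-fold). SDH3, an anchor subunit of succinate dehydrogenase, had ratios of -0.38 before glucose, 4.19 at 20 min and 0.31 at 60 min, and its difference of -3.88 was the lowest on the arrays (14.7-fold, 1 probe). The flavoprotein subunit SDH1 moved from -0.20 to 3.50 and 0.09, a late difference of -3.42. The iron-sulphur subunit SDH2 moved from -0.40 to 3.00 and -0.16, a difference of -3.16. All 3 were near even before glucose and again at 60 min, while the other anchor subunit SDH4, at 3.10 and then 0.95, fell by 2.16. KGD1, the first component of 2-oxoglutarate dehydrogenase, had 3.02 at 20 min and -0.17 at 60 min, and CIT1, the mitochondrial citrate synthase, had 5.32 and 2.44. CIT1 thus stayed on the positive side after a fall of 2.88, whereas ACO1, aconitase, crossed from 1.46 to -1.17. The minor mitochondrial citrate synthase CIT3 changed least, from 3.56 to 2.55.

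ATP synthase, which makes ATP from the proton gradient, fell in all 15 members, from a list median of 2.25 at 20 min to 0.02 at 60 min. ATP4, a stator stalk subunit, went from 2.60 to -0.65, a difference of -3.25 with -3.26 and -3.23 from its probes. ATP5 went from 2.80 to -0.06, and the catalytic beta subunit ATP2 from 2.65 to -0.11. At the shallow end, ATP18 went from 1.91 to 0.77, a difference of -1.14. No member of this list was within 2-fold of its 20 min ratio.

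In the electron transport chain 9 of 11 genes of complex III and cytochrome c fell, with a median of -1.73, and 6 of 9 of cytochrome c oxidase, with a median of -1.48. The core subunit QCR2 had 4.26 at 20 min and 0.67 at 60 min, a difference of -3.60 from 1 probe, and the other core subunit COR1 had 2.32 and -0.27. COX8 went from 2.64 to 0.33 and COX4 from 2.42 to 0.53. The members that did not pass 2-fold were both forms of cytochrome c, CYC1 at -0.47 and CYC7 at -0.86, with COX9 at -0.80, COX12 at -0.67 and COX5B at 0.56. COX5B, known as the hypoxic form of subunit 5, had 1.11 at 20 min and 1.67 at 60 min, and COX5A, the aerobic form, had 1.44 and -0.27. The forms of this subunit thus lay on opposite sides of no change.

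Genes around the chain changed in part. NDI1, the NADH dehydrogenase of the inner mitochondrial membrane that stands in for complex I in this yeast, had -0.01, 3.14 and -0.06 at the 3 times, a late difference of -3.20. The external enzymes differed from it at 20 min: NDE1 went from -0.50 to -2.42 and NDE2 from 1.44 to 0.25. Of 11 genes of NADH dehydrogenases and ubiquinone synthesis 4 fell, the fourth being the methyltransferase COQ5 at -1.70. ODC1, a mitochondrial carrier of 2-oxodicarboxylates, fell from 3.53 to 0.51, and PET9, the main ADP/ATP carrier, from 1.5 to -1.42. By contrast 0 of 72 mitochondrial ribosomal protein genes changed, and their median went from 0.09 to 0.27, and 1 of 29 mitochondrial import genes fell, TOM71 at -1.09.

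**Figure D2:**
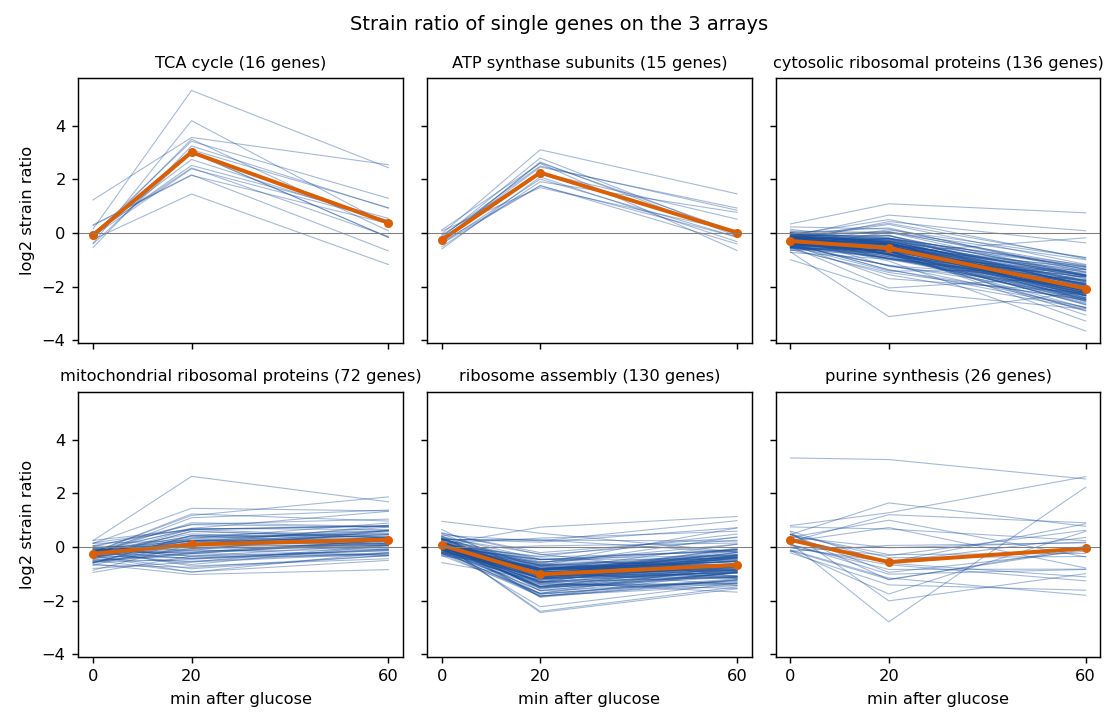
Log2 strain ratio (vertical axis) against min after glucose (horizontal axis) for single genes of 6 groups, thin lines being genes and the thick line the group median. TCA cycle and ATP synthase genes peak at 20 min and are near 0 at 60 min, ribosomal protein genes go down after 20 min, and mitochondrial ribosomal protein genes stay near 0.

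Among 15 regulators of respiratory genes, 2 fell (13.3%, against 10.2% of all genes) and 0 rose (against 8.45%). The share that fell was thus near that of all genes, and the values below are of single genes. CAT8, the activator of gluconeogenic genes, had 0.17 before glucose, 2.27 at 20 min and -0.41 at 60 min, and ADR1, which activates ADH2 and peroxisomal genes, had 0.26, 2.76 and 1.01. HAP4, the regulated subunit of the activator of respiratory genes, was at -0.12, -1.94 and -1.99, so it was negative at both later times and did not change between them. The remaining subunits HAP2, HAP3 and HAP5 differed by 0.08, -0.32 and -0.08. The list median of 0.00 turns negative (-0.12) when the arrays are centred.

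Gluconeogenesis, the glyoxylate cycle and the use of acetate and ethanol fell in 10 of 18 genes and rose in 0, with a list median of -1.18. IDP2, the cytosolic isocitrate dehydrogenase that yields NADPH, went from 3.32 at 20 min to 0.46 at 60 min. ALD4, the main mitochondrial aldehyde dehydrogenase, went from 4.51 to 1.69, and the pyruvate carboxylase PYC2 from 0.39 to -1.61. ADH2, which oxidises ethanol, kept a ratio of 2.77 at 60 min after 4.43 at 20 min. The 2 enzymes that define gluconeogenesis differed: PCK1, phosphoenolpyruvate carboxykinase, fell from 1.18 to -0.46, while FBP1, fructose-1,6-bisphosphatase, had 2.15 and 2.28. In the glyoxylate cycle, isocitrate lyase ICL1 fell from 1.90 to 0.03 and malate synthase MLS1 had 1.47 and 1.26. PYC1 stayed at 4.67 and 4.58, so the pyruvate carboxylases were far apart at both times.

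Fatty acid breakdown fell within a list whose other members did not. In the list of 31 peroxisomal genes 7 fell and 1 rose, and all 7 belong to beta-oxidation or fatty acid activation. FAA2, a peroxisomal acyl-CoA synthetase, had 0.18 before glucose, 3.73 at 20 min and -0.15 at 60 min, a difference of -3.88 with -4.08 and -3.67 from its probes. FOX2, the multifunctional beta-oxidation enzyme, had 4.81 and 1.41 (1 probe), and the thiolase POT1 had 3.59 and 0.29. The isomerase ECI1 went from 2.52 to -0.03. Split after the values were seen, 7 of 11 enzyme genes fell, with a median of -1.63, and of 17 peroxins, which build the organelle, 0 fell and 1 rose, PEX17 at 1.11 with low signal at both times. POX1, the acyl-CoA oxidase of the first step, was at 0.65 and 0.48, and the acyl-CoA synthetase FAA4, which was in the list but is used outside the peroxisome, had -0.88 and 0.12, just within 2-fold.

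The glycolytic enzymes, which are known targets of Gcr1, changed little as a group after 20 min. Of 14 genes 2 rose (14.3%, against 8.45% of all genes) and 1 fell (7.14%, against 10.2%), and the list median of 0.37 was 0.21 relative to the median gene. GPM1, phosphoglycerate mutase, had -5.55 before glucose, -3.75 at 20 min and -2.25 at 60 min, a late difference of 1.5 with 1.40 and 1.60 from its probes. Triosephosphate isomerase TPI1 had -3.56, -1.50 and -0.47, a difference of 1.03 from 1 probe that comes within 2-fold when the arrays are centred. Both thus moved further from their negative 0 min values toward even, in the same direction as before 20 min.

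The remaining glycolytic enzymes differed in where they stood at 60 min more than in how they had moved. Phosphoglucose isomerase PGI1 went from -2.05 to -1.65, pyruvate kinase CDC19 from -2.50 to -2.33 and enolase ENO2 from -1.80 to -1.91, so these 3 remained on the negative side. Aldolase FBA1 went from -0.29 to 0.35, phosphoglycerate kinase PGK1 from -0.86 to -0.29 and the glyceraldehyde-3-phosphate dehydrogenase TDH3 from -0.24 to 0.10, all near even. On the positive side were TDH1, with 3.53 and 4.47, TDH2, with 0.42 and 1.24, ENO1, with 1.12 and 0.89, and the minor pyruvate kinase PYK2, with 1.25 and 0.75. Probes of TDH2 and TDH3 or of ENO1 and ENO2 can bind RNA of the near-identical partner, so the split within these pairs is uncertain. The subunits of phosphofructokinase went down, PFK1 from 0.19 to -1.02, which is past 2-fold, and PFK2 from -0.08 to -0.71, which is not.

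GPM2, a paralogue of GPM1 with no known mutase activity in vivo, ran the other way in level. Its ratio was 0.81 before glucose, 5.50 at 20 min and 7.35 at 60 min, a rise of 1.85 (3.60-fold, 1 probe), and GPM3 had 0.10 and 0.63. Among 10 genes of fermentation, ADH4, a zinc-dependent alcohol dehydrogenase, rose from 2.69 to 4.57, the minor pyruvate decarboxylase PDC6 from 3.31 to 4.81 and the alcohol dehydrogenase ADH5 from 4.10 to 5.10. The main enzymes had small differences, with PDC1 at -0.30 and -0.77 and ADH1 at -0.41 and -0.05. ADH6 fell from 0.97 to -0.40. The list median of 0.10 turns to -0.03 with centred arrays and to -0.28 over genes with 2 or more probes, so it has no direction.

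Of the factors that act at glycolytic promoters, 0 of 6 changed. GCR2 had 0.12 and 0.21, RAP1 -0.65 and -0.92, and the general regulatory factor ABF1 -1.70 and -1.25. TYE7, which also activates glycolytic genes, remained far on the positive side at 3.15 and 2.82.

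The glucose transporters fell in part. Of 21 genes in the list of hexose transporters and their regulators 7 fell (33.3%, against 10.2% of all genes). In the same list 1 rose (4.76%, against 8.45%), and the median went from -0.80 to -1.23. Of the 21 genes 8 had low signal, and 5 fallers remained when low-signal genes were left out. HXT4, a high-affinity transporter, had -0.32, 0.90 and -1.96 at the 3 times, a late difference of -2.86. The low-affinity HXT3 had 0.58 and -1.84 and HXT1 1.70 and 0.02. HXT2, another high-affinity transporter, was already at -2.82 and reached -4.88, the largest negative value in the list. The related HXT6 and HXT7, which the probes may not tell apart, stayed at -2.25 and -2.28 and at -2.15 and -2.27. MTH1, a repressor of HXT genes, fell from -1.10 to -3.06, whereas the glucose sensors SNF3 and RGT2 differed by -0.67 and -0.56. HXT9 rose from 0.17 to 1.17, at the edge of the 2-fold call.

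Reserve carbohydrate, pentose phosphate and glycerol genes fell in part, with 0 to 1 member rising in each list. Of 20 storage carbohydrate genes 7 fell and PIG2, a putative phosphatase targeting subunit, rose from 0.61 to 2.32. Phosphoglucomutase PGM2 went from 2.47 to 0.14, glycogen phosphorylase GPH1 from 3.64 to 1.33 and the debranching enzyme GDB1 from 1.22 to -0.81. TPS1, trehalose-6-phosphate synthase, went from 0.75 to -0.42, while TPS2 had 0.32 and 0.34. The genes that fell thus included glycogen breakdown and, with GSY1 at -1.01 and GLG2, of low signal at 60 min, at -1.72, glycogen synthesis.

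In the pentose phosphate pathway, which supplies NADPH and ribose, 5 of 11 genes fell and all 11 differences were below 0. Glucose-6-phosphate dehydrogenase ZWF1 went from 1.5 to -0.04, and the minor isoforms TKL2, SOL4 and GND2 fell by 2.43, 2.30 and 1.85. Their main counterparts TKL1 and GND1 had differences of -0.83 and -0.81, within 2-fold. In the glycerol list 5 of 11 fell: GUT1, glycerol kinase, from 1.35 to -1.03, GUT2, the mitochondrial glycerol-3-phosphate dehydrogenase, from 2.75 to 0.23, and GPD2, GPD1 and GCY1 by 1.42, 1.10 and 1.35. SUC2, invertase, fell from 2.36 to -0.13, and HXK1, the hexokinase that glucose represses, from 2.67 to 1.16.

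Cytosolic ribosomal protein genes were the largest group to fall. Of 136 measured members 110 fell and 0 rose, against 10.2% and 8.45% of all genes, and 132 had a difference below 0. The median ratio was -0.29 before glucose, -0.56 at 20 min and -2.07 at 60 min, so the late difference of -1.51 (2.85-fold) was the larger step. In contrast to the respiratory genes, 129 of the 136 were farther from their own 0 min ratio at 60 min than at 20 min. The small and the large subunit were alike, with 44 of 56 and 66 of 80 lower and medians of -1.51 and -1.50. Probes of paired copies can bind each other's RNA, so values of the copies are not independent.

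Of the large subunit, RPL9A went from -1.04 at 20 min to -3.65 at 60 min, and RPL14A from -0.66 to -3.28, a difference of -2.62 with -2.74 and -2.50 from its probes. Of the small subunit, RPS2 went from -0.34 to -2.50 and RPS27B from -0.43 to -2.54. These genes were less than or about 2-fold negative at 20 min and more than 4-fold negative at 60 min. The 4 members with a positive difference were RPS9A, from -3.11 to -2.19, RPS27A, from -0.74 to -0.18, RPL18B, from -2.05 to -1.60, and RPL22B, from -1.42 to -1.36. RPS9A was the most negative ribosomal protein gene at 20 min, and RPL15B, from 1.09 to 0.75, was on the positive side at both times.

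Most yeast ribosomal proteins are encoded by a pair of duplicated genes, and 56 pairs had both copies measured. Both copies fell in 39 pairs, 1 copy in 13 and neither in 4. The copies of a pair differed by a median of 0.23, and 13 pairs differed by more than 0.53, the gap that 95% of probe pairs stay under. In 6 pairs the copies were 2-fold or more apart. RPS27B fell by 2.11 while RPS27A had a difference of 0.56, and RPS9B fell by 1.52 while RPS9A had 0.93. The others were RPL22, with -1.37 for RPL22A and 0.05 for RPL22B, RPL15, RPS14 and RPS7, in which the A copy fell by 1.61, 1.56 and 1.53 and the B copy had -0.34, -0.54 and -0.52.

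**Figure D3:**
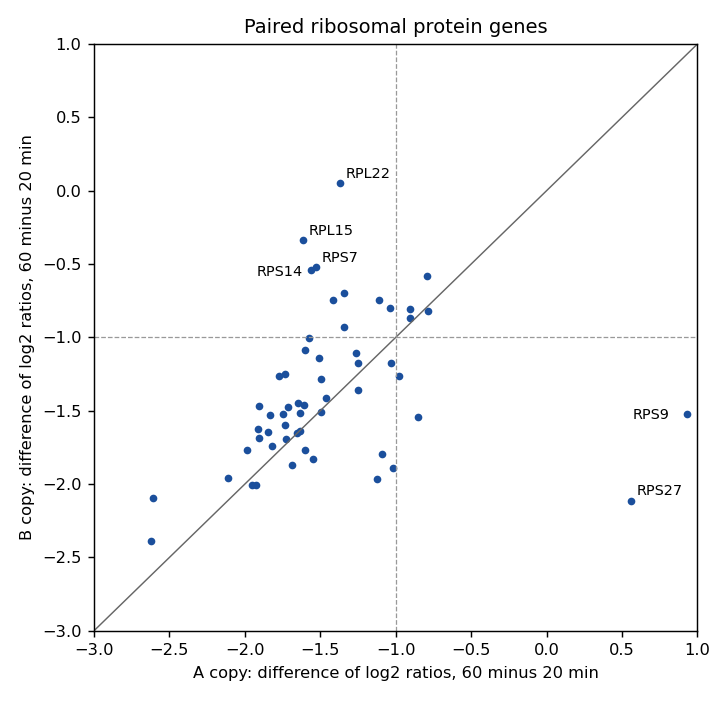
Difference of log2 strain ratios, 60 minus 20 min, of the A copy (horizontal axis) and the B copy (vertical axis) of 56 ribosomal protein gene pairs, with dashed lines at a 2-fold lower ratio and a solid line of equality. Most pairs lie in the lower left quadrant near the line, and the 6 named pairs have copies at least 2-fold apart.

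The genes that build ribosomes did not fall with the genes of the ribosome. Of 130 assembly genes 0 fell, against 10.2% of all genes, and 5 rose (3.85%, against 8.45%). The median ratio went from 0.06 at 0 min to -1.02 at 20 min and -0.68 at 60 min. The median difference of 0.40 was 0.24 relative to the median gene. At 60 min 106 of the 130 were nearer to their 0 min ratio, against 53.2% of all genes. NOB1, the nuclease that finishes 18S ribosomal RNA, rose from -0.61 to 0.71. FAL1 and UTP23 of small-subunit assembly rose by 1.04 and 1.03, and RRS1 and URB2 of large-subunit assembly by 1.05 and 1.02. These 4 are close to the 2-fold call.

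RNA polymerases I and III, which transcribe ribosomal RNA, 5S RNA and transfer RNAs, rose in 7 of 35 genes (20.0%, against 8.45% of all genes). They fell in 0, against 10.2% of all genes, and the list median was 0.56. RPO31, the largest subunit of polymerase III, had 0.19 before glucose, -1.95 at 20 min and -0.14 at 60 min. RRN3, the initiation factor that recruits polymerase I, had 0.51, -3.29 and -1.52. RPC53 went from -2.17 to -0.80 and TFC6, a subunit of TFIIIC, from -1.64 to -0.30. These genes came back from the negative side, RRN3 remaining more than 2-fold negative. Of 30 genes for modification and export of RNA and import of proteins 4 rose (13.3%) and 0 fell. Among the risers, LOS1, the exporter of transfer RNA, went from -3.23 to -1.46 and the importin KAP122 from -3.69 to -1.69.

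Some translation factors and aminoacyl-tRNA synthetases fell. Of 39 translation factors 6 fell (15.4%, against 10.2% of all genes) and 2 rose (5.13%, against 8.45%). The list median was -0.22, and 23 were nearer to their 0 min ratio at 60 min. EFT1 and EFT2, which encode the same elongation factor and whose probes may share RNA, fell by 1.07 and 1.12. TEF1 fell from 0.69 to -0.43, and the poly(A)-binding protein PAB1 from -0.23 to -1.27. The risers were GCD6 and GCD1, both subunits of the guanine exchange factor eIF2B, which rose by 1.19 and 1.07. Of 20 synthetases 4 fell (20.0%, against 10.2% of all genes) and 0 rose. The fallers were GUS1, DED81, KRS1 and FRS2, with differences from -1.35 to -1.22. The list median was -0.56, and 18 of the 20 differences were below 0.

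Stress and protein quality genes fell in part. Many of them had high ratios at 20 min, which are subtracted in the difference, so a fall in those is partly fixed in advance. Of 39 general stress genes 11 fell (28.2%, against 10.2% of all genes). The 1 that rose (2.56%, against 8.45%) was the glutathione peroxidase GPX2 at 1.05. The list median went from 2.16 at 20 min to 1.60 at 60 min. HSP12, a small membrane-associated heat-shock protein, had 0.75, 4.42 and 2.50, the disaggregase HSP104 had 0.27, 4.49 and 2.70, and the aldehyde dehydrogenase ALD3 had 1.18, 4.10 and 1.63. These remained positive at 60 min. Of 21 chaperone genes 5 fell (23.8%), among them the Hsp70 gene SSA1 from 4.67 to 2.58 and its near copy SSA2 from 0.91 to -0.63. The mitochondrial peroxiredoxin PRX1 fell from 2.96 to 0.17 and the cytochrome c peroxidase CCP1 from 1.65 to -0.17, with 4 of 26 oxidative stress genes (15.4%) lower.

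In the proteasome list of 38 genes 7 fell (18.4%, against 10.2% of all genes) and 1 rose (2.63%, against 8.45%). Of the 38 differences 35 were below 0. PRE3, a catalytic core subunit, went from 1.96 to 0.52, and RPN1, a scaffold subunit of the regulatory particle, from 0.61 to -0.83. The gene that rose was RPN4, the activator of proteasome genes, from -1.46 to -0.07 (1 probe). The list median was -0.48.

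The highest differences were found in nucleotide synthesis and uptake. ADE17, which carries out the last steps to inosinate, had 0.15 before glucose, -2.79 at 20 min and 2.23 at 60 min, and its rise of 5.02 (32.4-fold, 1 probe) was the highest on the arrays. Its isozyme ADE16 fell from 0.99 to -0.38. ADE1 rose from -1.76 to 0.58, ADE2 from -0.57 to 0.86, ADE4, the first committed enzyme, from -1.23 to -0.02, ADE13 from -1.21 to -0.09 and ADE12 from 1.27 to 2.62. In the purine list of 26 genes 7 rose and 2 fell, the second being the purine permease FCY2 at -1.51. The whole list had a median of 0.07, which turns to -0.06 with centred arrays. In a set of 9 ADE enzymes picked after the values were seen, 6 rose and 1 fell, with a median of 1.21.

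Among pyrimidine genes the transporters moved most. FUI1, the uridine permease, had 0.92 before glucose, -2.54 at 20 min and 1.20 at 60 min, a rise of 3.73 with 3.59 and 3.87 from its probes. The uracil permease FUR4 had 0.48, -0.15 and 2.51, a rise of 2.65, which left it farther from its 0 min ratio than at 20 min. URA2, the first enzyme of the pathway, rose from 0.16 to 1.87, PPR1, its transcriptional activator, from -1.47 to 0.05, and the orotate phosphoribosyltransferase URA10 from 2.05 to 3.52. The main form of that enzyme, URA5, fell from -0.24 to -1.60. In all 5 of 15 rose and 1 fell, and the list median was 0.52.

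Serine, glycine and one-carbon genes split evenly, with 4 of 15 higher and 4 lower. SER3, the first enzyme of serine synthesis from 3-phosphoglycerate, rose from -3.22 to -0.44, while its paralogue SER33 had -0.62 and -0.19. The cytosolic enzymes SHM2 and MTD1 rose by 1.65 and 1.94, and SER2 by 1.01. Lower were AGX1, from 4.10 to 1.52, and CHA1, from 3.37 to 0.89, which make glycine from glyoxylate and break down serine, with the threonine aldolase GLY1, from 1.36 to -0.89, and the mitochondrial MIS1, from -1.05 to -2.21. At 20 min all 4 genes that rose had ratios below 0, and of the 4 that fell all but MIS1 had ratios above 0. Because the 20 min ratio is subtracted in the difference, such a split is partly fixed in advance. The median of 0.06 turns to -0.06 with centred arrays and to -0.92 over genes with 2 or more probes, so it has no direction.

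Amino acid and nitrogen genes fell at larger shares than all genes, of which 10.2% fell and 8.45% rose. Of 63 biosynthetic genes 15 fell (23.8%) and 5 rose (7.94%), the latter near the share of all genes. GDH1, the main NADPH-dependent glutamate dehydrogenase, went from 0.35 to -2.49, a difference of -2.85, and asparagine synthetase ASN1 from 1.67 to -0.83. Glutamine synthetase GLN1 went from 2.85 to 0.86 and LEU1 from 2.50 to 0.64. The genes that rose were HIS4, from 0.20 to 1.98, PRO1, from -0.29 to 1.30, and HIS5, LYS14 and HIS7 by 1.05, 1.03 and 1.02. Of 29 genes of nitrogen catabolism 9 fell (31.0%) and 0 rose. Among the fallers were the ammonium permeases MEP3, from 1.29 to -1.55, and MEP1, from 2.12 to 0.52. Others were the urea permease DUR3, from 1.11 to -1.09 with low signal at 20 min, and the NAD-dependent glutamate dehydrogenase GDH2, from 2.82 to 0.79. In the list of 18 amino acid permeases 3 fell (16.7%) and 0 rose. These were AGP1, BAP3 and PTR2, the last a peptide transporter, by 2.27, 2.15 and 1.98.

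Sulphur, phosphate and thiamine genes each had a few members far from the rest. Of 35 genes of sulphate assimilation and methionine 6 rose (17.1%, against 8.45% of all genes), 4 fell (11.4%, against 10.2%) and 25 stayed within 2-fold. The methionine permease MUP3 rose from -0.76 to 1.05, MET22 from 1.5 to 2.97 and the regulator MET28 from 1.92 to 3.34, while the S-adenosylmethionine permease SAM3 fell from 4.52 to 3.16. In the phosphate list 6 of 25 fell (24.0%) and 1 rose (4.0%). The 6 include CTF19, a kinetochore gene and not one of phosphate use, at -1.04 with low signal at 60 min. They also include PHO3, which is counted again in the thiamine list below. PHO84, the high-affinity phosphate transporter, had 0.58, -1.60 and -4.57, a difference of -2.98 from 1 probe, and SPL2, an inhibitor of low-affinity uptake, had -0.49, -2.02 and -3.82. The riser was the cyclin PHO80, at 1.26, which acts with a kinase to restrain the phosphate response. In the list of 27 thiamine and NAD genes 5 rose and 1 fell, PHO3 from -2.16 to -4.16, and 15 differences were below 0, with a median of -0.23 and a mean of 0.07. The 5 were among 13 THI genes, a set picked after the values were seen, with THI4, which makes the thiazole of thiamine, going from 2.55 to 4.37 and the regulator THI2 from 2.25 to 3.60. The related THI20, THI21 and THI22 rose by 1.41, 1.53 and 1.21.

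Of 28 genes for fatty acid and phospholipid synthesis 5 rose (17.9%, against 8.45% of all genes), 2 fell (7.14%, against 10.2%) and 21 stayed within 2-fold. Those that fell make fatty acids: FAS1, the beta subunit of fatty acid synthase, went from 0.29 to -1.56 and acetyl-CoA carboxylase ACC1 from 1.18 to -0.14. Both activators of phospholipid genes rose, INO2 from -0.74 to 0.58 and INO4 from 0.48 to 1.52, as did their repressor OPI1, from -1.05 to 0.13. PSD1, phosphatidylserine decarboxylase, rose by 1.37 and CHO1, phosphatidylserine synthase, by 1.16, and the choline transporter HNM1, which is not in the list, rose from -2.97 to -0.69 (1 probe). INO1, their best known target, had 0.43 and 0.36.

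Cell cycle lists changed in some members, against 8.45% higher and 10.2% lower among all genes. Of 45 genes of G1/S and DNA replication 9 fell (20.0%) and 1 rose (2.22%), among them the S-phase cyclin CLB6, from 0.33 to -1.46, the G1 cyclin CLN2, from -0.64 to -1.94 with low signal at 20 min, thymidylate synthase CDC21, from 0.18 to -1.49, and the cohesin subunit MCD1, from 0.59 to -1.10. The one that rose was the ribonucleotide reductase subunit RNR4, from 1.06 to 2.48, while the large subunit RNR1 fell from -0.38 to -1.51. The list median was -0.08. In the M/G1 list 7 of 26 fell (26.9%), of which 6 separate daughter from mother cells: CTS1, chitinase, from 0.93 to -0.55, SCW11 from -0.63 to -2.33, DSE1, DSE2 and DSE4 by 1.45, 1.63 and 1.28, and EGT2 by 1.33. Of the MCM helicase genes of the same list, a set picked after the values were seen, 0 of 6 changed. FAR1, an inhibitor of G1 cyclins, rose from -3.48 to -1.79. In the G2/M cluster, with a median of -1.84 at 20 min and -1.36 at 60 min, 1 of 22 rose, the polo kinase CDC5 at 1.36.

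In the mating list 12 of 36 genes rose, against 8.45% of all genes, and 2 were counted as lower, MFA1 and AGA2, both with the limits given below. Of the 36 genes 8 had low signal. The list median went from -0.87 at 20 min to -0.20 at 60 min, a median difference of 0.64. In the pheromone pathway, the transcription factor STE12 had -0.39 before glucose, -1.83 at 20 min and -0.30 at 60 min, the G protein subunit GPA1 had -0.12, -1.28 and 0.07, and SST2, which ends G protein signalling, had -0.82, -2.79 and -1.09. The kinase KSS1 went from -0.30 to 1.30, and the pheromone-regulated genes PRM5 and PRM4 from -1.35 to 1.46 and from 1.37 to 3.13, each with 1 probe. The kinase FUS3 and the scaffold STE5 had differences of 0.68 and 0.54, within 2-fold.

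Mating genes of the alpha cell type were among those that rose. MATALPHA1, which activates these genes in alpha cells, had -0.12, -1.03 and 1.07, the a-factor receptor STE3 had 0.02, -2.21 and -0.49, and the alpha-factor gene MF(ALPHA)1 had -0.70, -2.73 and -1.19. For the genes of the a cell type the values do not carry a direction. The a-factor gene MFA1 had -1.32 and -2.45 as means of different probes, and the 1 probe valued at both times had a difference of -0.51, within 2-fold. The agglutinin subunit AGA2, from -0.06 to -1.21, and the alpha-factor receptor STE2, from -1.93 to -0.75, each had 1 probe and low signal at either 20 or 60 min, and MFA2, with -1.80 and -2.65, at both. The labels do not give the mating type of the strains, and MATALPHA1 shares its sequence with the silent copy HMLALPHA1, which rose from -1.06 to 1.20 with low signal at 20 min.

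The genes with the largest differences and probes all past 2-fold include several outside these groups. On the rising side were ACA1, a factor of the ATF/CREB family, from -2.43 to 0.29, ERT1, a zinc cluster regulator of genes for non-fermentable carbon, from 0.88 to 3.19, IZH4, a membrane protein of zinc homeostasis, from -1.75 to 0.54, GYL1, a protein of polarised secretion, from -2.79 to -0.69, MOR1, from -1.32 to 0.74, and NDJ1, a meiotic telomere protein, from 2.01 to 3.96. The falling side held MDG1, a plasma membrane protein linked to pheromone signalling, which had 0.30 before glucose, 2.31 at 20 min and -1.41 at 60 min, a fall of 3.72 with -3.80 and -3.64 from its probes. LSP1, a component of the membrane furrows called eisosomes, fell from 2.81 to -0.25, and its partner PIL1 from 1.65 to -0.35. ERT1, NDJ1 and MATALPHA1 ended farther from their 0 min ratio, whereas ACA1, IZH4, GYL1, MOR1, MDG1 and LSP1 ended nearer to it.

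**Figure D4:**
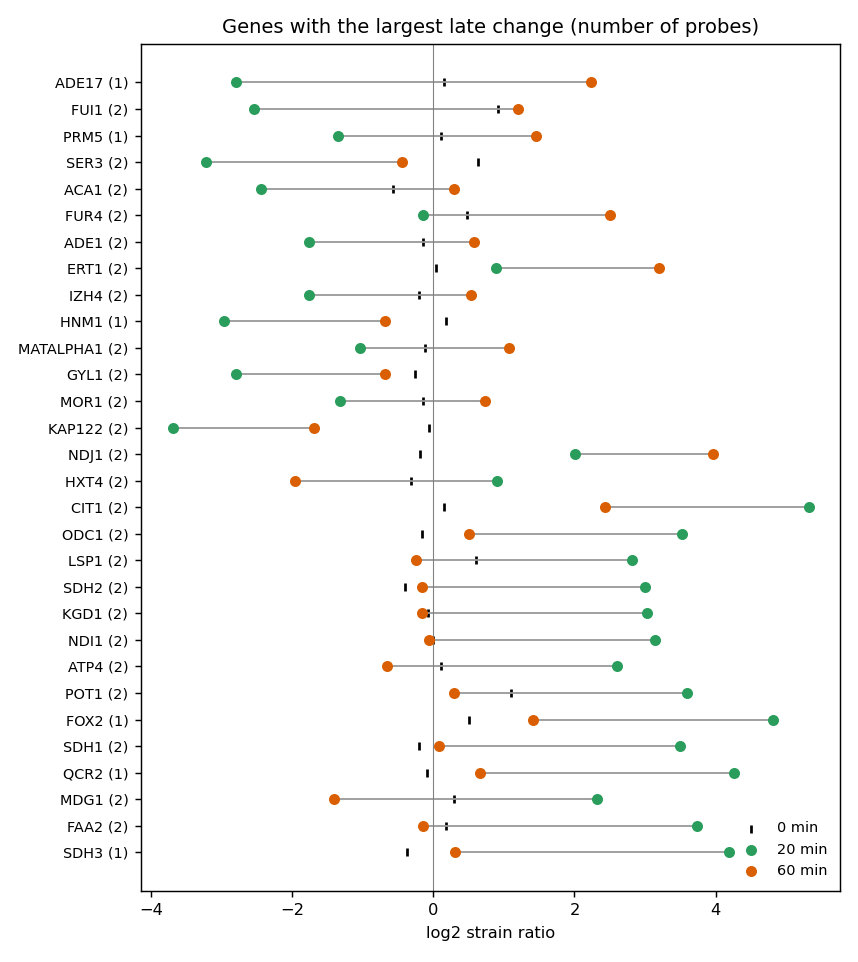
Log2 strain ratio at 0 min (black tick), 20 min (green) and 60 min (orange) of the 30 genes with the largest late differences that the naming rule gave, with the number of probes in brackets. The upper 15 genes rose, from ADE17 at 5.02 down to NDJ1 at 1.95, and the lower 15 fell, from HXT4 at -2.86 down to SDH3 at -3.88.

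A return toward the 0 min ratio was no general feature of the late shift. Of genes that rose 268 of 473 (56.7%) and of genes that fell 298 of 569 (52.4%) were nearer to their 0 min ratio at 60 min than at 20 min, close to the 53.2% of all genes. The change before 20 min shares the 20 min array with the late shift, so error in that array enters both with opposite sign. Groups differed in this respect, from 50 of 51 respiratory genes nearer to the 0 min ratio to 7 of 136 ribosomal protein genes.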

How the data were processed

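The authors deposited log2 ratios of Cy5 and Cy3 channels, with 10807 probes per array. Per the labels, Cy5 is channel 1, Cy3 is channel 2, and cRNA was made with Agilent's low-input linear amplification kit. The log2 base was read from gaps between tied values, which match ratios of small whole numbers. The sources used here do not name the scanner software, background correction, normalisation or the strain in the numerator, and no dye swap was analysed. A dye or probe bias that is constant cancels in a difference between times.

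The platform annotation gave 9202 probes 1 symbol and 1605 none, and 9194 matched a RefSeq R64 gene ID. Probes of a gene were averaged, and log2 ratios subtracted, with Python 3.11.15, pandas 2.3.3 and numpy 2.4.6. In 16 genes, 6 of them called, a probe lacked a value at 20 or at 60 min, so different probes were averaged. Calls were 2-fold changes with no test, since each time had 1 array. The precision is limited by that number, and intensities were not analysed here. For the low-signal rule, the offset of each array's tied values was first subtracted. It was -0.33 at 0 min, -0.475 at 20 min and -0.747 at 60 min. Low-signal genes were then those whose valued probes all lay within about 0.001 of a log2 ratio of whole numbers up to 8. The calculation was checked on simulated data.

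Members and the 55 gene lists were chosen with earlier results of these data known, and 12 further lists after the values were seen. Genes named were GCR1, the glycolytic enzymes, the 12 highest and 12 lowest genes whose probes, 2 or more, all passed 2-fold, the 3 highest and 3 lowest with 1 probe, up to 6 called members each way of lists with 3 or more, and small families of a named gene. This gave 281 genes before families, and others, such as CAT8, HAP4, GCR2, TYE7, PET9, PIL1, INO1 and single members of lists, were picked once their values had been seen. The alternatives tried were other thresholds, centring, equal spread, other uses of probes, low signals left out, zeros left out and the mean over members.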

Additional observations from a re-analysis of the deposited data

How the results depend on the processing

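Of 440 medians of gene lists under an alternative, 413 moved by less than 0.21, the spread between probes of a gene. Much of this was fixed in advance, so the count is no measure of robustness. Centring shifts every list median by the same 0.125. The median over probes can change few genes, since 12 had 3 or 4 probes, and 16 genes had a probe valued on 1 of the arrays. Among these medians and 1217 values of named genes no median or gene past 2-fold changed sign. Medians within 2-fold did change sign in 9 lists, 5 of them with centring or scaling, 4 of which are given above, the fifth being the factors at glycolytic promoters (0.07 to -0.06 when centred). The other 4 were mitochondrial import (-0.08 to 0.02) and histones (-0.16 to 0.06) over genes with 2 or more probes, and zinc and copper (0.21 to -0.09) and thiamine and NAD (-0.23 to 0.07) as means. Using only probes valued on both arrays, chosen after seeing the data, gave 474 genes higher and 569 lower and took MFA1 within 2-fold. The counts depended on the threshold: 1399 genes were higher and 1056 lower at 1.5-fold, and 85 and 248 at 3-fold. Requiring every probe of genes with 2 or more probes to pass gave 232 and 291. Genes with 1 probe are left out by construction, which explains part of the drop. Of the called genes, 304 higher and 345 lower had 2 or more probes, and the rest of the drop came from genes with a probe within 2-fold. The median of cytochrome c oxidase was -0.80 over genes with 2 or more probes and -1.25 as a mean over members, which include COX5B. With equal spread the medians of the 40S and 60S ribosomal proteins were -1.75 and -1.74, and at 3-fold 21 and 33 of their members were lower. No paired analysis was possible because each time point has 1 array and no replicate number. A planned share of promoters holding a motif was not run, since promoter sequences were not used here. Signal over background could not be read from ratios, so the low-signal rule can miss dim genes, and probes of near-identical genes may share RNA.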

Other observations

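Genes of the secretory pathway, membrane and cell surface showed few calls. In the list of 36 genes for translocation and folding in the endoplasmic reticulum 3 fell and 1 rose, and those that fell were all subunits of the oligosaccharyltransferase, which attaches sugar chains to proteins: OST5 from 0.66 at 20 min to -0.88 at 60 min, STT3 from 0.16 to -0.95 and WBP1 from 0.58 to -0.43. The riser was a subunit of the signal recognition particle receptor. Of 30 ergosterol genes 3 fell, ERG6 from -0.09 to -1.46, ERG20 by 1.10 and ERG2 by 1.02. In the cell wall list 3 of 35 fell and 1 rose, the glucan-modifying GAS1 from 0.15 to -0.92 among the first and the flocculin FLO5 from 0.46 to 1.80 the second. Of 15 vacuolar ATPase genes 1 rose, STV1, the subunit of the Golgi form, from -1.46 to -0.40. Background rates were 8.45% higher and 10.2% lower.

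Metal, autophagy and sugar lists differed in their shares of calls, against 8.45% higher and 10.2% lower of all genes, with single members of large values. The metallothionein genes CUP1-1 and CUP1-2, near-identical copies that bind copper, went from 1.77 to -0.59 and from 1.77 to -0.57. These copies were the 2 of 12 zinc and copper genes that fell (16.7%), and 1 rose (8.33%). FET4, a low-affinity iron transporter, fell from 1.73 to -0.06 and SMF3, a vacuolar iron transporter, rose from 0.20 to 1.99, with 3 of 30 iron genes higher and 2 (6.67%) lower. Of 26 autophagy genes 2 rose (7.69%) and 1 fell (3.85%): ATG14 rose from -2.06 to -0.54 and ATG2 fell from 0.34 to -1.11, with ATG19 higher by 1.09, and both risers had low signal at 20 min. Among 33 glucose signalling genes 4 rose (12.1%), the repressor MIG1 from -1.89 to -0.44, NRG1 from 0.50 to 1.91, the kinase subunit SNF4 from -0.67 to 0.69 and GPA2 by 1.29, and 2 fell (6.06%), MIG3 and BCY1 by 1.16 and 1.14. In the galactose and sucrose list 4 of 13 genes fell (30.8%) and 1 rose (7.69%), and 4 had low signal. The maltases MAL12 and MAL32, which are near-identical, fell by 1.93 and 1.46, MAL12 with low signal at 20 min. The other fallers of that list were SUC2 at -2.49 and MAL31 at -1.33.

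Of 421 genes with a systematic name only, 51 rose (12.1%, against 8.45% of all genes) and 38 fell (9.03%, against 10.2%), and 98 had low signal on either array. Of 1387 probes with no gene name that were valued on both arrays, 878 were of low signal, and of the other 509 probes 106 changed by 2-fold or more.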
